A study of Homo sapiens with 14 samples.

Results

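The 10 genes examined belong to the NF-kB pathway and its inflammatory output, and KLF4 binding was described at the subunit genes NFKB1, NFKB2, RELA and RELB, the inhibitor genes NFKBIA and TNFAIP3, and the cytokine genes IL6, CXCL8, CXCL1 and CCL2. They were taken by name from the 20033 protein-coding genes of GENCODE 44 and not by any measured value, though earlier results of these data were known. A KLF4 peak was counted for a gene when its summit lay between 10 kb upstream of the transcription start site (TSS) of the Ensembl canonical transcript and 2 kb past the end of the gene. The 10 windows were 13.9 to 128 kb long and added up to 320 kb.

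The peaks came from 4 KLF4 ChIP-seq libraries of BEAS-2B, an established human bronchial epithelial cell line. WT control and Nrf2 KO control cells received no arsenic, and WT As3+ and Nrf2 KO As3+ cells received 1 µM trivalent arsenic for 6 h. The KO cells came from CRISPR-Cas9 editing of Nrf2 with blasticidin selection, and the WT cells are colonies from the same procedure that still made the protein, so both genotypes went through it. Whether 1 colony or several gave the chromatin is not stated in the sources used here. Each condition had a single library (1 each), which leaves no replicate check, and no test or p-value between conditions is given. A peak list holds neither the edited exon nor expression, so it could not be used to check the knockout or the cell type by marker genes, nor to check which KO library is the treated one or how well each precipitation worked. Values of the Nrf2 KO libraries therefore hold for the libraries as labelled. In all 4, fewer cells with KLF4 at a site cannot be told apart from less KLF4 per cell.

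NF-kB is a family of dimeric transcription factors that inhibitor proteins hold in the cytoplasm until signals from cytokine or Toll-like receptors lead to the degradation of the inhibitors. RELA with p50, the product of NFKB1, carries the canonical response, while RELB with p52, the product of NFKB2, carries the alternative one. In airway epithelium the pathway is known for switching on cytokines and chemokines that recruit leukocytes, and for switching on its own inhibitors. KLF4 is a zinc-finger transcription factor that binds GC-rich CACCC-type sequence, and Nrf2 is the transcription factor of the oxidative stress response, which binds the antioxidant response element (ARE).

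Sequences upstream of the TSS are shown first for the members on which the results turn. CXCL1 and IL6 had a KLF4 peak in WT As3+ and not in Nrf2 KO control, TNFAIP3 had the reverse, NFKB1 and NFKBIA had peaks in both, and CXCL8 had none. They are RefSeq promoter sequences (GRCh38.p14), read 5′ to 3′ on the strand of the gene from 250 bases before the TSS and stopped before annotated exons. Capitals mark the motifs that were searched on both strands. These were the KLF word CCACACCC or CCACGCCC, the GC box CCCCGCCCC, which can overlap other GC-rich words, and the AP-1 word TGACTCA or TGAGTCA. The others were the ARE core TGACNNNGC and the 10-base NF-kB motif GGGRNWYYCC. In these letters R is A or G, W is A or T, Y is C or T, and N is any base.
CXCL1 promoter, chr4:73869143-73869392 (plus strand): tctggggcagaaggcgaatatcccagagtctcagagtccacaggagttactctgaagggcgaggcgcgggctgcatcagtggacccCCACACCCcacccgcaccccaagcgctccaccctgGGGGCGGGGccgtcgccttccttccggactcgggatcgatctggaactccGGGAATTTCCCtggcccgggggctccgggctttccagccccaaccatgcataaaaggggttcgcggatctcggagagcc
IL6 promoter, chr7:22726950-22727146 (plus strand): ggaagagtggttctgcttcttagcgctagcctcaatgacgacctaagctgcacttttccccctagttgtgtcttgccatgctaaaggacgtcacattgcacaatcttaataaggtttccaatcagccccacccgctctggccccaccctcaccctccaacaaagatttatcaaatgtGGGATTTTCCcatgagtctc
TNFAIP3 promoter, chr6:137867009-137867213 (plus strand): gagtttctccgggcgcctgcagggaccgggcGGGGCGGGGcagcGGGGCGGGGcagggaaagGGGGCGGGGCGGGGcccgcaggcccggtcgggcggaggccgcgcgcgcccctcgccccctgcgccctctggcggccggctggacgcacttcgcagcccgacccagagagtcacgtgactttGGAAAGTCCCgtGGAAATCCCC
NFKBIA promoter, chr14:35404750-35404999 (minus strand): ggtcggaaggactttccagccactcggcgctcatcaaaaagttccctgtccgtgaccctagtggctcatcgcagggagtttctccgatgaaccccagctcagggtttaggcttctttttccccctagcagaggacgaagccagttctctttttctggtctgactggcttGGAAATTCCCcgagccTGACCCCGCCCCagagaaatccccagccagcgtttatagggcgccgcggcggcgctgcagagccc
NFKB1 promoter, chr4:102501109-102501329 (plus strand): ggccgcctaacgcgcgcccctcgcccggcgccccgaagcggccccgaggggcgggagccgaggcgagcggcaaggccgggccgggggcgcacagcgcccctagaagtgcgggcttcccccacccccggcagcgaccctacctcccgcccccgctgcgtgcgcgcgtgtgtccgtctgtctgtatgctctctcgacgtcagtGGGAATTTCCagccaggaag
CXCL8 promoter, chr4:73740319-73740518 (plus strand): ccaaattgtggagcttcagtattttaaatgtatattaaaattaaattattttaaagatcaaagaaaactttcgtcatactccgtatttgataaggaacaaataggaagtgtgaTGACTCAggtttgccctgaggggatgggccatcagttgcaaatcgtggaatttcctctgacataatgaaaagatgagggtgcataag

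In CXCL1 the capitals are, from left to right, a KLF word, a GC box and an NF-kB motif. In TNFAIP3 a row of GC boxes is followed by a pair of NF-kB motifs. NFKBIA carries an NF-kB motif and then an ARE core that overlaps a GC box. The single capital runs of IL6 and NFKB1 are NF-kB motifs, and that of CXCL8 is an AP-1 word. Of the 10 members, 8 had an entry at the canonical TSS in the RefSeq promoter table, and RELB and CCL2 did not. Over these 8 promoters, taken from 250 bases before to 50 after the TSS, the NF-kB motif occurred in 6 (NFKB1, NFKB2, NFKBIA, TNFAIP3, IL6 and CXCL1), beside 5.91% of all 35116 RefSeq promoters of the same length. The GC box occurred in 3 of them, beside 15.7%, and the KLF word in 1, that of CXCL1, beside 8.05%. The ARE core was found in 1, beside 13.3%, and the AP-1 word in 1, beside 4.95%. A match to these letters is a description of the sequence and not evidence that a factor binds there. A site that differs from them in 1 base was not counted, so a missing match is not evidence that a site is absent.

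A further set of sequences lies within intron 1 of RELA, 350 bp downstream of its TSS, under a KLF4 peak of the Nrf2 KO control library. The 200 bp around this summit held 3 copies of the AP-1 word, spaced by 37 and 41 bases, and they are shown on the minus strand, that of the gene, with the AP-1 word in capitals. The copy at chr11:65662607-65662635, read together with the gc after it, also matches the ARE core, which the capitals do not mark.
RELA intron 1, chr11:65662644-65662665 (minus strand): ggtcTGACTCAgtttcccctct
RELA intron 1, chr11:65662607-65662635 (minus strand): ggggtggccctTGACTCAgcatcctccct
RELA intron 1, chr11:65662566-65662594 (minus strand): agagggaacctTGACTCAgtttccctcca

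In control WT cells no KLF4 peak was listed for any of the 10 genes, and after As3+ there were 12 peaks at 6 genes, namely NFKB1, NFKB2, RELA, NFKBIA, IL6 and CXCL1. In Nrf2 KO cells the counts ran the other way, with 26 peaks at NFKB1, NFKB2, RELA, RELB, NFKBIA and TNFAIP3 without arsenic and 0 peaks at 0 genes after As3+. The same direction holds for the whole lists, which contained 751 peaks in WT control, 29870 in WT As3+, 76545 in Nrf2 KO control and 130 in Nrf2 KO As3+. Among all 20033 protein-coding genes, 2.30% had a peak in the gene window in WT control, 65.2% in WT As3+, 80.0% in Nrf2 KO control and 0.404% in Nrf2 KO As3+. Thus 6 of 10 members in WT As3+ is a share near that of all genes. In Nrf2 KO control 6 of 10 is lower than 80.0%, but for 10 genes the gap is small and was not tested. Moreover, 6 members have windows under 20 kb, for which 65.2% of all genes had a peak in Nrf2 KO control. With so few genes called in WT control and Nrf2 KO As3+, 0 of 10 there is no result about these genes in particular.

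**Figure D1:**
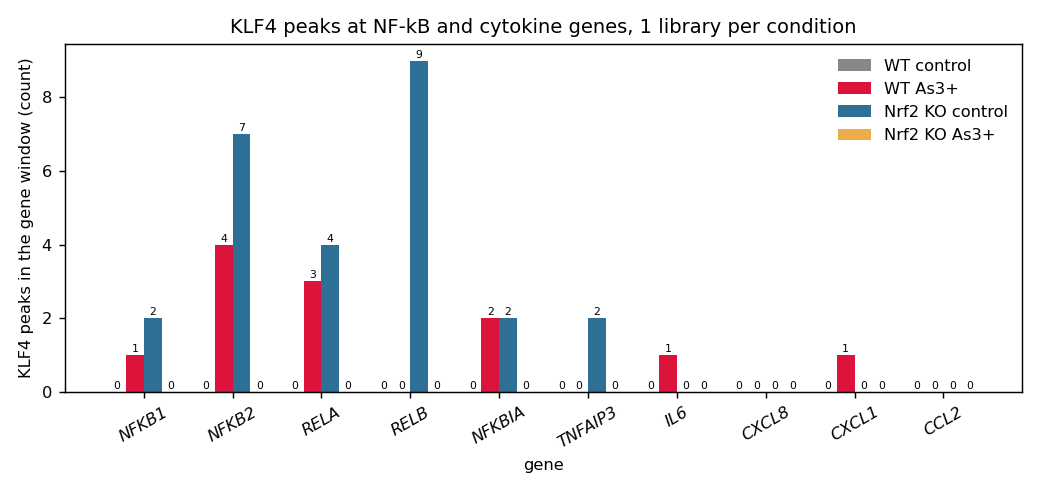
Number of KLF4 peaks (y axis, count) in the window of each gene (x axis), with 1 bar per library and the count above it. WT As3+ and Nrf2 KO control have bars at 6 genes each, 4 of them in common, RELB has the most peaks with 9 in Nrf2 KO control, and WT control and Nrf2 KO As3+ are at 0 throughout.

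The plot of peak counts by gene shows the members ordered by role. Of the 4 subunit genes, 3 had a peak in WT As3+ and 4 in Nrf2 KO control, and of the 2 inhibitor genes 1 and 2. Of the 4 cytokine genes, 2 had a peak in WT As3+, which were IL6 and CXCL1, and 0 in Nrf2 KO control. Over all protein-coding genes the shares were 65.2% in WT As3+ and 80.0% in Nrf2 KO control, and for windows under 20 kb, which all 4 cytokine genes have, 49.6% and 65.2%. These groups of 2 to 4 genes were not tested for a difference by role.

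The 4 genes NFKB1, NFKB2, RELA and NFKBIA had a peak in both WT As3+ and Nrf2 KO control, as did 62.5% of all protein-coding genes. IL6 and CXCL1 had one in WT As3+ and not in Nrf2 KO control, a combination found at 2.63% of all genes. RELB and TNFAIP3 showed the reverse, as did 17.5% of all genes, and CXCL8 and CCL2 had a peak in neither, as did 17.4%. The 2.63% covers windows of every length, and it was not worked out for short windows such as those of IL6 and CXCL1. Neither the IL6 nor the CXCL1 peak passes the stricter threshold used below. Longer windows more often held a peak over all genes, a split looked at after the data had been seen. Windows under 20 kb had a peak for 49.6% of genes in WT As3+ and 65.2% in Nrf2 KO control, and the members with such short windows, which are NFKB2, NFKBIA and the 4 cytokine genes, had one in 4 of 6 and 2 of 6 cases. Windows of 20 kb or more had a peak for 69.8% and 84.5% of genes, and for 2 of 4 and 4 of 4 members. Groups of 4 and 6 members are too small to show an order by window length.

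**Figure D2:**
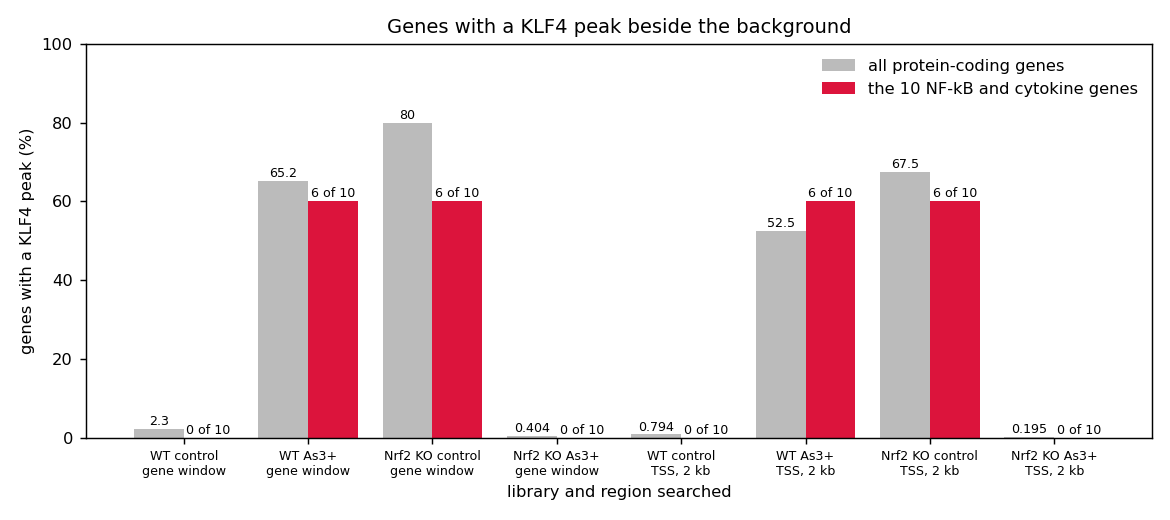
Share of genes with a KLF4 peak (y axis, %) in each library (x axis), in the gene window (left 4 pairs) and within 2 kb of the TSS (right 4 pairs); grey bars are all protein-coding genes and red bars the 10 members. The red bars stand at 6 of 10 in WT As3+ and Nrf2 KO control, beside grey bars of 52.5% to 80.0%, and at 0 in the other libraries.

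Close to the TSS the picture was alike. Within 2 kb of the canonical TSS a peak was listed for 6 of 10 members in WT As3+, beside 52.5% of all genes, and for 6 of 10 in Nrf2 KO control, beside 67.5%. In WT control and Nrf2 KO As3+ it was 0 of 10, beside 0.794% and 0.195% of all genes. Of the individual peaks, 9 of 12 in WT As3+ and 12 of 26 in Nrf2 KO control lay within 2 kb of the TSS. Over the windows of all protein-coding genes, 51.5% and 33.8% of the peaks in a window did, so the member peaks of Nrf2 KO control were spread away from the TSS in the same direction as its whole list. The plot of summit positions shows where the others fell. In Nrf2 KO control 9 of them lay in introns or exons of NFKB2, RELA and RELB more than 2 kb from the TSS, and in WT As3+ 1 did, in exon 13 of NFKB2.

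**Figure D3:**
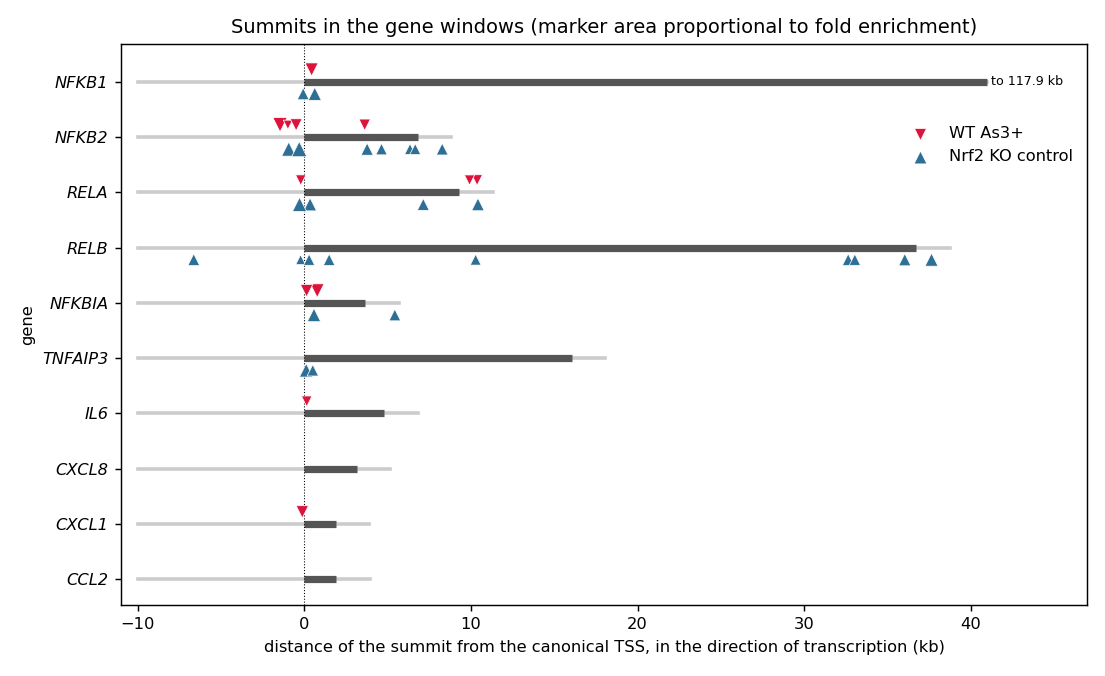
Position of each KLF4 summit relative to the canonical TSS (x axis, kb, positive downstream) for each gene (y axis), with WT As3+ above and Nrf2 KO control below the gene line; marker area is proportional to fold enrichment, dark bars are genes and grey lines the windows. Summits of WT As3+ cluster at the TSS of 6 genes and past the end of RELA, those of Nrf2 KO control run along NFKB2 and RELB as well, and the window of NFKB1 continues to the right with no further summit.

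How many single sites the lists shared depended on the rule. Of the 12 WT As3+ peaks at the members, 10 overlapped a Nrf2 KO control peak by at least 1 bp, where 55.6% of all WT As3+ peaks did. With summits at most 200 bp apart it was 7 of 12, and with at least 50% of each peak in common 1 of 12. For the latter rules the share over all WT As3+ peaks was not worked out, so these counts have no background. Under the 1-bp rule the other 2 were the peaks of IL6 and CXCL1. Seen from the other list, 7 of the 26 Nrf2 KO control peaks overlapped a WT As3+ peak, where 21.7% of that list did. None of these member peaks overlapped a peak of WT control or Nrf2 KO As3+.

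The peaks at the members were of ordinary height for their lists. Fold enrichment at the summit, the authors' ratio of ChIP signal over local background, ran from 2.89 to 6.91 in WT As3+ with a median of 4.66, and the median of the whole list was 4.72. In Nrf2 KO control it ran from 3.30 to 7.90 with a median of 4.80, and the list median was 4.69. These heights rest on few fragments. The number over a summit, worked out from the fold and p of the peak, was 9 to 20 with a median of 11 in WT As3+ and 5 to 17 with a median of 8 in Nrf2 KO control. A count of 11 has an exact 95% Poisson interval of 5.49 to 19.7, for counting error only, so most member peaks of a list cannot be ranked among each other. When a −log10 q of 5 or more was required (q being the authors' p adjusted over the list), 3 of the 12 WT As3+ peaks remained, at NFKB1, NFKB2 and NFKBIA. In Nrf2 KO control 9 of the 26 peaks remained, at 6 genes, RELB among them through a peak at the start of its neighbour CLASRP. The share of all listed peaks that pass this cut was not worked out, so these counts have no background.

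**Figure D4:**
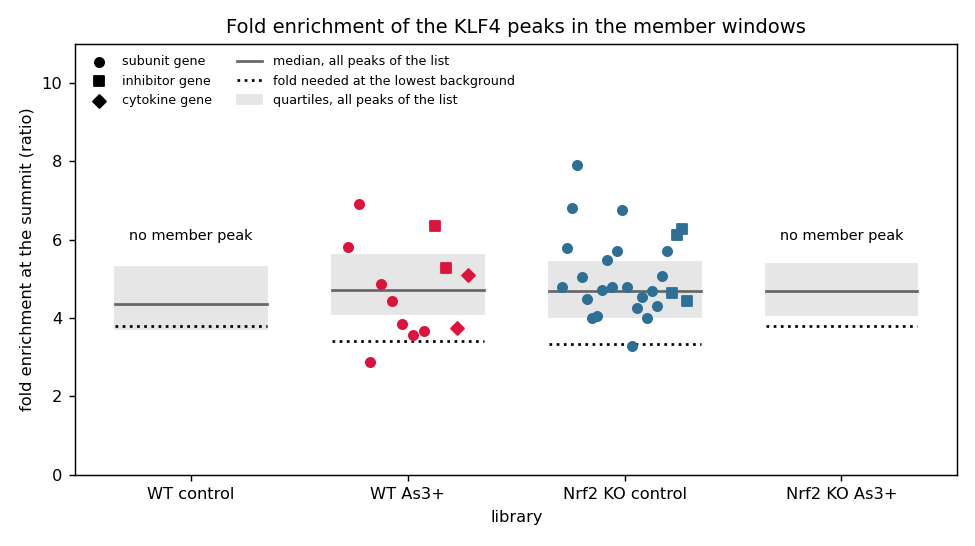
Fold enrichment at the summit (y axis, ratio) of every member peak in each library (x axis); circles are subunit genes, squares inhibitor genes and diamonds cytokine genes, the grey box and line give the quartiles and median of all peaks of the list, and the dotted line the fold needed for listing at the lowest background. Most points lie within or near the box, from 2.89 to 6.91 in WT As3+ and from 3.30 to 7.90 in Nrf2 KO control, and a point below the dotted line had a higher local background.

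The lists did not reach down to the same level, which bears on the absent peaks. The lowest background was 1.90 fragments per position in WT control, 0.757 in WT As3+, 0.491 in Nrf2 KO control and 1.64 in Nrf2 KO As3+, and the lowest −log10 p listed was 4.64, 3.17, 2.87 and 5.03. At these levels a peak had to reach a fold of 3.79 in WT control, 3.41 in WT As3+, 3.35 in Nrf2 KO control and 3.79 in Nrf2 KO As3+. If the background at each member peak is scaled from library to library by these lowest levels, all 12 WT As3+ peaks exceeded the fold that WT control would have needed there (2.43 to 3.34) and that Nrf2 KO As3+ would have needed (2.58 to 3.58). Of the 26 Nrf2 KO control peaks, 26 exceeded the need in WT control and in WT As3+ and 24 that in Nrf2 KO As3+, with a pair of RELB peaks below it. The scaling is an assumption and was not tested, since read totals were not used here. Every peak compared had already passed the cut of its own list, and the comparison was not made for all listed peaks. These counts therefore cannot show whether the absent peaks reflect a lack of KLF4 or the limits of the lists.

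NFKB1, on chromosome 4 from 102501330 to 102617302 on the plus strand, encodes p105, the precursor of p50. In WT As3+ it had 1 peak, chr4:102501659-102502251, in intron 1 with the summit 443 bp into the gene, a fold of 5.82 and 12 fragments (exact Poisson interval 6.20 to 21.0). The Nrf2 KO control peak chr4:102501844-102502138 overlapped it, with the summit 632 bp from the TSS, a fold of 5.80 and 9 fragments (4.12 to 17.1). The intervals of the fragments overlap, and the background was 1.23 fragments in WT As3+ and 0.724 in Nrf2 KO control. The other Nrf2 KO control peak, with a fold of 4.80 and 8 fragments, had its summit 63 bp upstream of the TSS and covered the stretch with the NF-kB motif printed above for NFKB1. In the rest of this longest window, of 128 kb, there was no peak in either list.

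NFKB2, on chromosome 10 from 102394110 to 102402524 on the plus strand, encodes p100, the precursor of p52, and had the highest peaks among the members in both lists. In WT As3+ there were 4 peaks. The highest, chr10:102394107-102394377, had a fold of 6.91 and 20 fragments (12.2 to 30.9), placing it in the top 7.74% of the list by −log10 p. Its summit lay 1453 bp upstream of the canonical TSS but 142 bp from the nearest annotated start of another NFKB2 transcript. The others lay 981 bp upstream with a fold of 2.89, 487 bp upstream with a fold of 4.87, and in exon 13 of the coding sequence, 3626 bp downstream, with a fold of 4.44.

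In Nrf2 KO control NFKB2 had 7 peaks. The highest, chr10:102395172-102395735, 299 bp upstream of the TSS, had a fold of 7.90 and 14 fragments (7.65 to 23.5), within the top 3.52% of that list, and overlapped the WT As3+ peak at 487 bp. Next was chr10:102393961-102395061, 1101 bp wide, with a fold of 6.81 and 16 fragments, which spanned both of the distal WT As3+ peaks. A further 4 lay in coding exons 13, 16, 22 and 23 with folds of 5.06, 4.50, 4.00 and 4.06, and 1 lay 1462 bp past the end of the gene with a fold of 4.71. Only the exon 13 peak of these had a WT As3+ counterpart. As listed, the 5′ region was thus covered in both lists and the 3′ part of the gene in Nrf2 KO control alone. By −log10 p the Nrf2 KO control peaks in exons 16, 22 and 23 and past the gene end ranked 42359, 56998, 57748 and 36903. The WT As3+ list held 29870 peaks, and a Nrf2 KO control list of that length would not hold these 3′ peaks.

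RELA (minus strand of chromosome 11, 65653599 to 65663090) encodes p65, the transactivating subunit of the canonical dimer. Its 3 WT As3+ peaks were low. The one at the promoter, chr11:65663051-65663250, had its summit 209 bp before the TSS, a fold of 3.66 and 9 fragments (4.12 to 17.1), and this summit was also 137 bp from the start of RELA-DT, the divergent transcript. The other 2 lay 602 and 1056 bp past the end of the gene with folds of 3.56 and 3.85.

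Nrf2 KO control had 4 peaks at RELA. The promoter peak, chr11:65662922-65663585, had a fold of 6.75 and 14 fragments (7.65 to 23.5), above the median of its list, whereas the WT As3+ peak at the same place was below the median of its own. A peak past the gene end, with a fold of 5.48 and 12 fragments, overlapped both of the WT As3+ peaks there. The peak over the 3 AP-1 words in intron 1, chr11:65662367-65662707, had a fold of 5.72 and 10 fragments (4.80 to 18.4) and no WT As3+ counterpart, and the last lay in intron 9 with a fold of 4.80.

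RELB, on chromosome 19 from 45001461 to 45038192 on the plus strand, encodes the subunit that pairs with p52. It had no peak in WT As3+, where the nearest summit was 46.3 kb from its TSS, and 9 in Nrf2 KO control, more than any other member. Near the TSS these were low, with a fold of 3.30 and 6 fragments (2.20 to 13.1) 217 bp upstream, 4.27 in intron 1 at 292 bp, and 4.53 in exon 2 at 1495 bp. Others lay 6630 bp upstream, in introns 3 and 9 and in coding exons 11 and 12, with folds of 4.00 to 5.08. The highest, with a fold of 5.72 and 14 fragments, was 915 bp past the end of RELB and 62 bp from the TSS of the next gene, CLASRP, which encodes a splicing-related protein. It was also the one RELB peak to remain under the stricter −log10 q. By −log10 p this peak ranked 9282 in its list, and the next RELB peak ranked 29916. The WT As3+ list held 29870 peaks, so in a Nrf2 KO control list of that length RELB would keep only the peak near CLASRP.

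NFKBIA (minus strand of chromosome 14, 35401079 to 35404749) encodes IkB-alpha, which retains RELA dimers in the cytoplasm and is itself an NF-kB target. In WT As3+ it had 2 peaks. The higher, chr14:35403684-35404223, lay in intron 1, 778 bp into the gene, with a fold of 6.34 and 20 fragments (12.2 to 30.9), in the top 9.58% of the list. The other lay in coding exon 1 at 142 bp with a fold of 5.28 and 11 fragments. In Nrf2 KO control a single peak of 1022 bp, chr14:35403799-35404820, overlapped both and reached into the promoter stretch printed above, with its summit at 585 bp in intron 1, a fold of 6.11 and 10 fragments (4.80 to 18.4). Another peak lay 1766 bp past the end of the gene with a fold of 4.64.

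TNFAIP3, on chromosome 6 from 137867214 to 137883314 on the plus strand, encodes A20, a ubiquitin-editing enzyme that switches off NF-kB signalling. It had 2 peaks in Nrf2 KO control. The higher, chr6:137867215-137867562, began directly after the printed promoter stretch with its GC boxes and NF-kB motifs, and its summit was in the untranslated part of exon 1, 121 bp from the TSS. Its fold was 6.27, with 17 fragments (9.90 to 27.2), the largest fragment number among the member peaks of that list. The lower one lay in intron 1 at 513 bp with a fold of 4.45 and was 461 bp from the start of WAKMAR2, a long non-coding RNA gene. The nearest WT As3+ summit was 155 kb away.

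IL6, on chromosome 7 from 22725884 to 22732002 on the plus strand, encodes interleukin-6, a cytokine of the acute-phase response. Its only peak was in WT As3+, chr7:22727235-22727452, in intron 1 with the summit 149 bp from the TSS, a fold of 3.76 and 10 fragments (4.80 to 18.4). By −log10 p this peak ranked at 81.5% of the list counted from the top, and it lay 271 bp from the start of IL6-AS1, the antisense transcript. The closest Nrf2 KO control summit was 94.1 kb from the TSS.

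CXCL1, on chromosome 4 from 73869393 to 73871308 on the plus strand, encodes a chemokine that attracts neutrophils. Its only peak was again in WT As3+, chr4:73869132-73869595, with the summit 116 bp upstream of the TSS, a fold of 5.11 and 11 fragments (5.49 to 19.7). It contained the whole promoter stretch printed above, and the 200 bp around the summit held the KLF word, the GC box and the NF-kB motif. Of the 12 WT As3+ member peaks it was the 1 with a KLF word in that window. The closest Nrf2 KO control summit was 32.9 kb away.

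CXCL8 and CCL2 had no peak in any list. CXCL8, on chromosome 4 from 73740519 to 73743716, encodes interleukin-8, the main neutrophil chemokine of the airway, and its nearest summits were 96.2 kb from the TSS in WT As3+ and 47.8 kb in Nrf2 KO control. CCL2, on chromosome 17 from 34255274 to 34257208, encodes a monocyte chemoattractant, and its nearest summits were 571 kb away in WT As3+ and 30.0 kb in Nrf2 KO control. In WT control the nearest summit to any member lay 165 kb from the TSS of RELA, and in Nrf2 KO As3+ 339 kb from that of RELB.

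Motif words under the summits were counted in windows of 200 bp. In WT As3+ the NF-kB motif occurred under 4 of 12 member peaks (1 each at NFKB2, RELA, NFKBIA and CXCL1), beside 6.32% of all peaks of the list, and in Nrf2 KO control under 3 of 26 (at NFKB1, NFKB2 and RELB), beside 5.69%. The KLF word occurred under 1 of 12, beside 10.3%, and 4 of 26, beside 9.27%. The GC box occurred under 2 of 12, beside 7.76%, and 3 of 26, beside 4.61%, and the ARE core under 2 of 12, beside 9.36%, and 5 of 26, beside 9.17%. The AP-1 word occurred under 0 of 12, beside 4.33%, and 2 of 26, beside 2.54%, these being the RELA intron 1 peak and the exon 22 peak of NFKB2. The windows were GC-rich, with a median GC content of 70.0% at the WT As3+ member peaks, where the list median was 64.5%, and 64.8% at those of Nrf2 KO control, where it was 61.5%. The part of GC content in the motif counts was not tested.

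Other genes of the pathway were taken from a list of 59 that holds none of the 10 members. With the same window, 2 of them had a peak in WT control (3.39%), 46 in WT As3+ (78.0%), 46 in Nrf2 KO control (78.0%) and 0 in Nrf2 KO As3+, beside 2.30%, 65.2%, 80.0% and 0.404% of all genes. The equal counts held at the listed threshold, and with a −log10 q of 5 or more they were 28 in WT As3+ and 19 in Nrf2 KO control. The share of all genes at that stricter cut was not worked out. As listed, WT As3+ and Nrf2 KO control both had a peak at 44 of the 59, where 62.5% of all genes did. CCL20 and CSF3 had one in WT As3+ and not in Nrf2 KO control, as did 2.63% of all genes. IRAK4 and CXCL3 had the reverse, beside 17.5%, and 11 had none in either, beside 17.4%. The plot of the pathway list by role shows that all 7 kinase-complex genes and all 7 inhibitors or co-regulators had a peak in both lists. The kinase-complex genes all have windows of 20 kb or more. Of all genes with such windows, 69.8% had a peak in WT As3+ and 84.5% in Nrf2 KO control. A difference by role was not tested. Among 17 receptors and adaptors there were 14 in WT As3+ and 15 in Nrf2 KO control, among 22 target genes 15 and 14, and among 5 cytokine receptors 2 and 2. REL, the remaining subunit gene, had 3 peaks in WT As3+ and 2 in Nrf2 KO control.

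**Figure D5:**
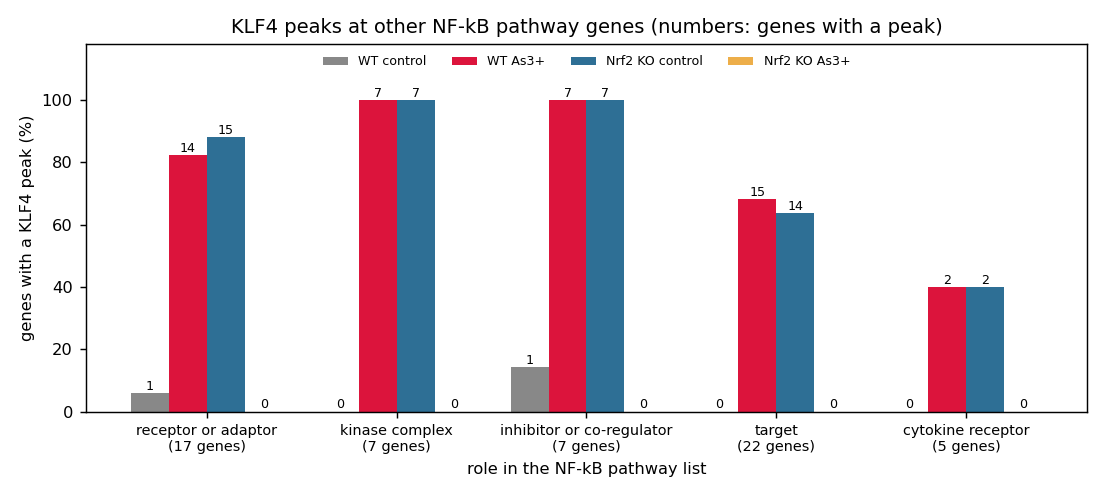
Share of genes with a KLF4 peak (y axis, %) by role in the pathway list (x axis, without REL, the single subunit gene of that list), with 1 bar per library and the number of genes above it. Kinase-complex and inhibitor genes reach 7 of 7 in WT As3+ and Nrf2 KO control, target genes and cytokine receptors stand lower, and WT control has 1 gene each among receptors and inhibitors. The shares of all protein-coding genes, not drawn here, were 65.2% in WT As3+ and 80.0% in Nrf2 KO control.

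The genes of this list with the highest peaks by −log10 p stood above any member. In WT As3+ they were LIF, BCL3 and IKBKG. LIF, a cytokine of the interleukin-6 family, had a fold of 11.4 and 28 fragments 2647 bp upstream of its TSS. BCL3, a nuclear partner of p50 and p52, had a fold of 9.91 and 28 fragments 4776 bp downstream of its TSS. IKBKG, the regulatory subunit of the IkB kinase complex, had a fold of 7.84 and 31 fragments 5701 bp upstream of its TSS. IKBKG has a near-identical partial copy close by on chromosome X, so the reads counted there are uncertain. In Nrf2 KO control the genes with the highest peaks were TNIP1, BCL3 and IL32. TNIP1, a partner of A20, had a fold of 10.5 and 20 fragments 187 bp from its TSS. BCL3 had 10.5 and 19 fragments 1190 bp upstream of its TSS. IL32, a proinflammatory cytokine, had 10.2 and 16 fragments 7064 bp upstream of its TSS. The 2 genes with a WT control peak were TNFRSF1B, a TNF receptor, with a fold of 3.02 at 5010 bp upstream, and BCL3 with 4.62 at 6604 bp upstream.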

How the data were processed

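KLF4 ChIP-seq was measured in 4 BEAS-2B libraries, 1 per condition, and grouped by the sample labels. The other libraries of the 14 in the series (H3K4me1, H3K27Ac and input) were not analysed here. Per the labels, KLF4 was precipitated with 4 µg of antibody. According to the submitters' processing notes, reads were converted with bcl2fastq 2.17 and aligned with BWA to GRCh38/hg38. The program that called the peaks is not given in the sources used here.

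The authors deposited 1 narrow peak list per library. Each deposited peak carries the fold enrichment of its summit (a ratio to local background), a −log10 p, a −log10 q, a score of 10 times the −log10 q rounded down, and the offset of the summit. Peaks were called separately in each library. The weakest −log10 q listed was 1.00 to 1.03, so weaker sites are not in the lists, and enrichment was not compared between libraries as a level.

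Only peaks of the 22 autosomes and of chromosomes X and Y entered the counts. Fragments over a summit (n) and background (λ) were solved from fold = (n + 1)/(λ + 1) with p as the Poisson tail above n (misfit in −log10 p at most 0.000405). They give the depth behind a peak, with exact 95% Poisson intervals that cover counting error only. Read totals were not used here. Genes, canonical transcripts and exons came from GENCODE 44, and promoter sequences from RefSeq (GRCh38.p14). Scripts were tested on simulated data before use. With 1 library per condition no test between conditions was possible, so members are described by counts beside all protein-coding genes.

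The members, the 59-gene pathway list and the alternatives were chosen with earlier results of these data known. All 10 members are named. Of the pathway list, genes with a peak in WT control or Nrf2 KO As3+, and the 3 with the highest −log10 p in WT As3+ and in Nrf2 KO control, are named with values, as are genes whose TSS lies near a described peak. Genes of the pathway list with a peak in only 1 of WT As3+ and Nrf2 KO control were picked out once values were known. Alternatives were a stricter −log10 q, a TSS window, other TSS definitions, any overlap with the window, a Nrf2 KO control list cut to the length of the WT As3+ list, other overlap rules and other motif windows. A count of every listed summit was also entered, but it repeated the main count and tried nothing different. A background split by window length was added after seeing the data. Python 3.11.15 was used with numpy 2.4.6, pandas 2.3.3, scipy 1.17.1, pysam 0.24.0 and matplotlib 3.10.9.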

Additional observations from a re-analysis of the deposited data

Results flagged for a closer look

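The change from control to As3+ had opposite signs in the 2 genotypes. In WT cells the number of members with a KLF4 peak changed by 6 (from 0 to 6) and the number of peaks in their windows by 12 (from 0 to 12). In Nrf2 KO cells the number of members changed by -6 (from 6 to 0) and the number of peaks by -26 (from 26 to 0). With 1 library per condition this difference was not tested, and genotype, treatment and library cannot be told apart. The peak lists give no means to check which Nrf2 KO library was treated or whether each precipitation worked, so these values hold for the libraries as labelled. The whole lists changed in the same directions.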

How the results depend on the processing

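No paired analysis was possible because each condition has 1 library and the labels carry no replicate numbers, and for the same reason no library could be left out in turn. Of 87 alternative values for 29 results, 65 stayed the same by the rule used (within 1.5 times for a count) and 22 moved. The 65 include values that could not move, so this tally is no measure of stability. A count of 0 stays 0 under a stricter threshold, a smaller window or a stricter overlap rule. The count of every listed summit was the main count over again. At a −log10 q of at least 5, members with a peak in WT As3+ went from 6 to 3, in the gene window and also within 2 kb of the TSS, their peaks from 12 to 3, and those shared with Nrf2 KO control from 10 to 3. The Nrf2 KO control peaks went from 26 to 9, still at 6 members (RELB through the peak 62 bp from the CLASRP TSS), and the pathway genes with a peak to 1 in WT control, 28 in WT As3+ and 19 in Nrf2 KO control. With the window reduced to 2 kb on either side of the TSS, the Nrf2 KO control peaks were 12 and the WT control pathway genes 0. With the Nrf2 KO control list cut to 29870 peaks, 10 peaks remained at 6 members, RELB again only through the peak near the CLASRP TSS. An overlap of at least 50% of each peak left 1 shared peak. Motif counts moved with the window. For WT As3+, the GC box was under 1 peak with 100 bp and 4 with 400 bp, the KLF word under 2 with 400 bp, and with 100 bp the ARE core was under 1 and the NF-kB motif under 2. For Nrf2 KO control, the KLF word was under 1 and 7 peaks, the NF-kB motif under 1 and 5, and the GC box under 5 with 400 bp. The stricter threshold, the smaller windows and the shorter list hold fewer peaks or bases by construction. Shares over the whole lists were not worked out for the stricter threshold, the cut list, the other overlap rules or the other motif windows. The numbers of 5 to 20 fragments over a summit limit what can be ranked.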

Other observations

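CXCL1 and CXCL8 lie in a chemokine cluster on chromosome 4 with 7 other genes (CXCL6, PF4V1, PF4, PPBP, CXCL5, CXCL3 and CXCL2), and CCL2 lies in a cluster on chromosome 17 with 5 others (CCL7, CCL11, CCL8, CCL13 and CCL1). Both clusters were chosen after values at the members had been seen. Over the 379 kb that the chromosome 4 cluster spans there were 3 KLF4 peaks in WT As3+ and 6 in Nrf2 KO control, and 0 in WT control and Nrf2 KO As3+. Of these, 3 and 5 lay in the windows of its 9 genes. A peak was listed for 3 of the 9 genes in WT As3+ and for 4 of 9 in Nrf2 KO control. For windows under 20 kb, which all of them but CXCL6 have, the shares of all genes were 49.6% and 65.2%. The WT As3+ peaks were at CXCL6 with a fold of 6.36 and 11 fragments, CXCL1 with 5.11 and 11, and CXCL2 with 4.33 and 10, all within 2 kb of the TSS. In Nrf2 KO control the genes with a peak were CXCL6 with a fold of 4.31, PF4 with 3.91, CXCL3 with 3.48 and CXCL2 with 5.00 for the higher of 2 peaks, at 5 to 9 fragments each. CXCL1, CXCL2 and CXCL3 are close paralogs, and the placement of reads in their similar parts is uncertain. Over the 128 kb of the chromosome 17 cluster, whose 6 genes all have windows under 20 kb, none of the 4 lists had a peak. Neither cluster was tested against all genes.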
